A study of Mus musculus with 18 samples.

Results

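The Tcl1 family of AKT coactivators was followed in mouse ovarian RNA through its 6 members on mouse chromosome 12, Tcl1, Tcl1b1, Tcl1b2, Tcl1b3, Tcl1b4 and Tcl1b5. They were taken by gene symbol, with earlier results of these data known, and all 6 were found among the 30172 genes of the files. The ovaries came from untreated wild type C57BL/6J daughters (F1) of dams fed either normal chow (F1-Control) or chow with 3% methionine, which raises homocysteine in the dam (hyperhomocysteinemia, F1-HHcy). Per the labels, the diet began 4 weeks before mating and lasted through gestation and lactation. The study's methods give a longer feeding period. Whole ovaries were taken at postnatal day 3 (Pd3), 7 (Pd7) and 21 (Pd21), with 3 poly-A libraries per diet and day. Pd3 and Pd7 were labelled batch 1 and Pd21 batch 2, so that age and batch cannot be told apart for Pd21. The labels do not say whether a library is 1 animal or a pool, or which libraries share a dam, and p-values therefore measure only the spread between libraries.

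TCL1 proteins are small barrel-shaped proteins with no enzyme activity of their own. They bind AKT, the kinase downstream of PI3K, and raise its activity, and the human gene is known from T-cell leukaemia, in which a rearrangement switches it on. In the mouse, Tcl1 is known as an oocyte gene whose product supports the first divisions of the embryo, and the Tcl1b genes are rodent copies of a sister gene. In the young ovary, oocytes lie dormant in primordial follicles or start to grow, and PI3K and AKT signalling in the oocyte is a known trigger of that start.

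The members lie next to each other over 75.7 kb of chromosome 12 (GRCm38.p6, chr12:105147019-105222737, RefSeq gene limits). Their order is Tcl1b2, Tcl1b1, Tcl1b5, Tcl1b3 and Tcl1b4, which share the plus strand, followed by Tcl1 on the minus strand. The genes are short, from 4355 bases for Tcl1b3 to 8207 bases for Tcl1b2. The first 60 coding bases of each are printed as an example of the copies, with capitals at bases unlike Tcl1b1 at the same position (GENCODE transcripts, 5′ to 3′, no gaps allowed).
Tcl1b1: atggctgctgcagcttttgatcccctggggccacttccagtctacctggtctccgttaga
Tcl1b5: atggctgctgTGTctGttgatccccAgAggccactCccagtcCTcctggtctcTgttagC
Tcl1b2: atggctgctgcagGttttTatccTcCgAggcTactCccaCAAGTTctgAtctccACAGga
Tcl1b3: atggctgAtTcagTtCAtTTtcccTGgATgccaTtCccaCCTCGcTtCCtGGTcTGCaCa
Tcl1b4: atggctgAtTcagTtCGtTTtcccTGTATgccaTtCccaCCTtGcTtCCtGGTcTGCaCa
Tcl1: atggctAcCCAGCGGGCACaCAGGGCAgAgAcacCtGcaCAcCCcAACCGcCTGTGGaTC
In this window Tcl1b5 differed from Tcl1b1 at 11 bases, Tcl1b2 at 18, Tcl1b3 and Tcl1b4 at 28 each and Tcl1 at 40. Over the whole coding sequence of 116 to 122 codons, aligned bases were 73.6% to 88.4% identical between Tcl1b genes and 57.6% to 65.7% identical between Tcl1 and any Tcl1b gene. There Tcl1b3 was closest to Tcl1b5 (88.4%) and 81.9% identical to Tcl1b4, an order that the short window does not show. The likeness touches the values themselves. Of all stretches of 75 bases in a transcript, 20.6% of those of Tcl1b3, 18.5% of those of Tcl1b2 and 8.8% of those of Tcl1b5 occurred unchanged in another member, against 3.8% for Tcl1b1, 0.3% for Tcl1b4 and 0 for Tcl1. At 150 bases no member exceeded 3.8%. Neither the read length nor the treatment of reads that match several genes is given in the sources used here, so levels of Tcl1b3, Tcl1b2 and Tcl1b5 carry that uncertainty.

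The Tcl1b genes also share much of their upstream sequence. All 6 members matched a RefSeq promoter (GRCm38.p6). In the 250 bases before the annotated start, aligned bases were 91.9% to 99.2% identical between Tcl1b genes and 60.9% to 65.6% identical between Tcl1 and a Tcl1b gene. The aligned part was 62.4% to 94.8% of the window between Tcl1b genes and 68.4% to 88.0% between Tcl1 and a Tcl1b gene. Identity between unrelated promoters was not measured. All 5 Tcl1b promoters held a pair of CANNTG words (the letters of an E-box, the word read by basic helix-loop-helix factors such as the oocyte factors FIGLA and SOHLH1) whose first bases lie 25 bases apart, and Tcl1 held 1 such word. The pair is shown for the 4 genes in which it lies outside annotated exons, in capitals and on the strand of the gene.
Tcl1b1, chr12:105159606-105159656: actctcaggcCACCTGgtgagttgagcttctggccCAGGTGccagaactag
Tcl1b2, chr12:105146935-105146985: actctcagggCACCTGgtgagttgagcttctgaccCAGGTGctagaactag
Tcl1b3, chr12:105190945-105190995: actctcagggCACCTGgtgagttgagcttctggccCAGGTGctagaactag
Tcl1b5, chr12:105176260-105176310: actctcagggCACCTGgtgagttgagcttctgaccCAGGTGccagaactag
CANNTG is a common word, which 66.1% of 27018 promoters of the same length held on either strand (it reads the same on both). The word TAATTG, searched on both strands, was in none of the 6 windows and in 7.3% of all promoters. Neither did they hold TAATTA, which was in 4.9% of promoters. The TATA box letters, TATAAA, were also in none of the 6, against 13.0% of promoters. These matches describe letters only. The pair of words was common to all Tcl1b genes, while their levels, given next, were not.

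**Figure D1:**
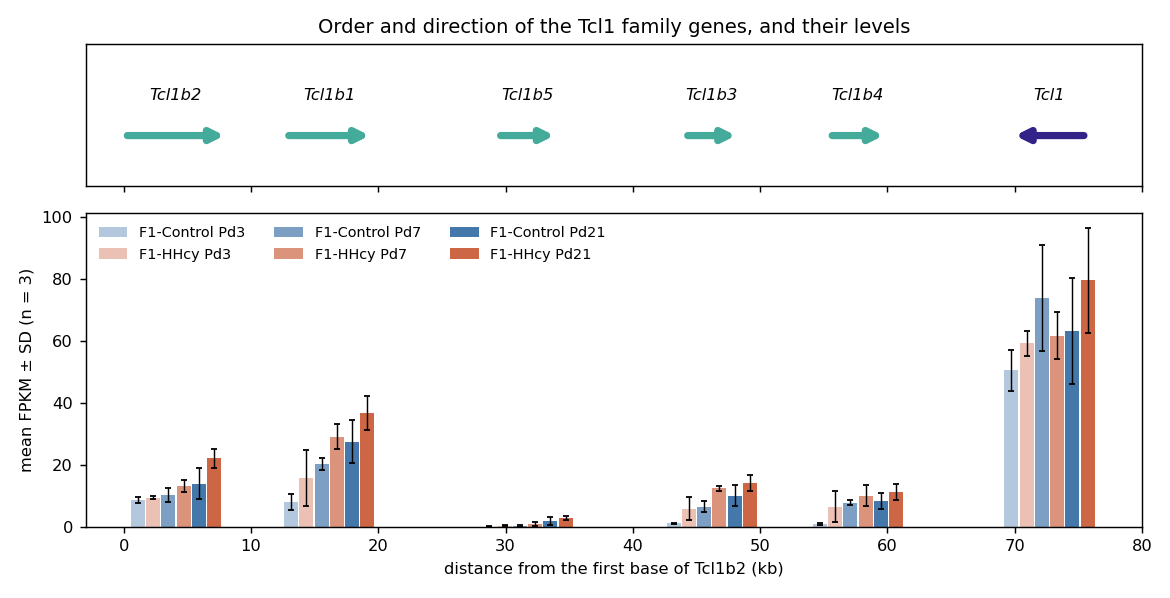
The upper row places the 6 genes by distance in kilobases from the first base of Tcl1b2, with arrows in the direction of transcription. The lower bars give the mean FPKM with its SD over 3 libraries in each diet and day group, from 0.0883 for Tcl1b5 in F1-Control at Pd3 to 79.5 for Tcl1 in F1-HHcy at Pd21.

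Values were read as FPKM, fragments scaled to gene length and library size, a unit in which levels can be compared between genes. Libraries held 33630641 to 39399281 fragments on genes. A gene was tested where at least 3 libraries of a fit reached 1 FPKM, on log2(FPKM + 1) with limma, and it is said to have risen or fallen at a Benjamini-Hochberg adjusted p under 0.05 over all genes tested. Log2 differences on this scale understate the change of genes near or under 1 FPKM. The library F1-HHcy Pd3 replicate 3 stood apart: over 13277 genes its Pearson correlation was 0.964 with the F1-Control Pd3 mean and 0.952 with the mean of the other F1-HHcy Pd3 libraries, which themselves correlated at 0.982 and 0.992 with the F1-Control Pd7 mean. Results that rest on it are given with and without it. The tissue label held: all 16 growing oocyte markers averaged 1 FPKM or more in every group. Defining genes of T and B lymphocytes, a known site of TCL1 outside the gonad, were low, with Cd3g at most 0.922 FPKM, Cd3e at most 0.234 FPKM and Pax5 at most 0.118 FPKM in any library. Of the 14 lymphocyte markers, 1 or 2 lay at 0 throughout a group in 5 of the 6 groups, and their sum was 1.92 to 7.89 FPKM. In 5 of the 6 groups 1 or 2 of them averaged 1 FPKM or more, with a highest value of 4.42 FPKM.

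Tcl1 was the most abundant member in every library, and Tcl1b5 the least. In F1-Control at Pd3, Tcl1 stood at 44.3, 49.4 and 57.7 FPKM, Tcl1b2 at 8.58, 7.69 and 9.6, and Tcl1b1 at 5.98, 6.93 and 10.8. Tcl1b3 stood at 0.958, 1.01 and 1.41 FPKM and Tcl1b4 at 0.671, 0.897 and 1.37, on 25 to 51 fragments per library for Tcl1b4. Tcl1b5 was close to undetected, with 5, 4 and 1 fragments. Tcl1b3 and Tcl1b4 were thus at like levels, well below Tcl1b1 and Tcl1b2. For all 6 members the group mean was lowest in F1-Control at Pd3 and highest in F1-HHcy at Pd21. The highest mean was 1.58 times the lowest for Tcl1, 2.56 times for Tcl1b2, 4.66 times for Tcl1b1, 11.6 times for Tcl1b4 and 12.6 times for Tcl1b3, a span that crosses both batches. Along these orders, libraries of neighbouring groups overlapped in all but 2 of 30 pairs. The exceptions were Tcl1b3 between F1-Control Pd3 and F1-HHcy Pd3, and Tcl1b2 between F1-Control Pd21 and F1-HHcy Pd21.

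**Figure D2:**
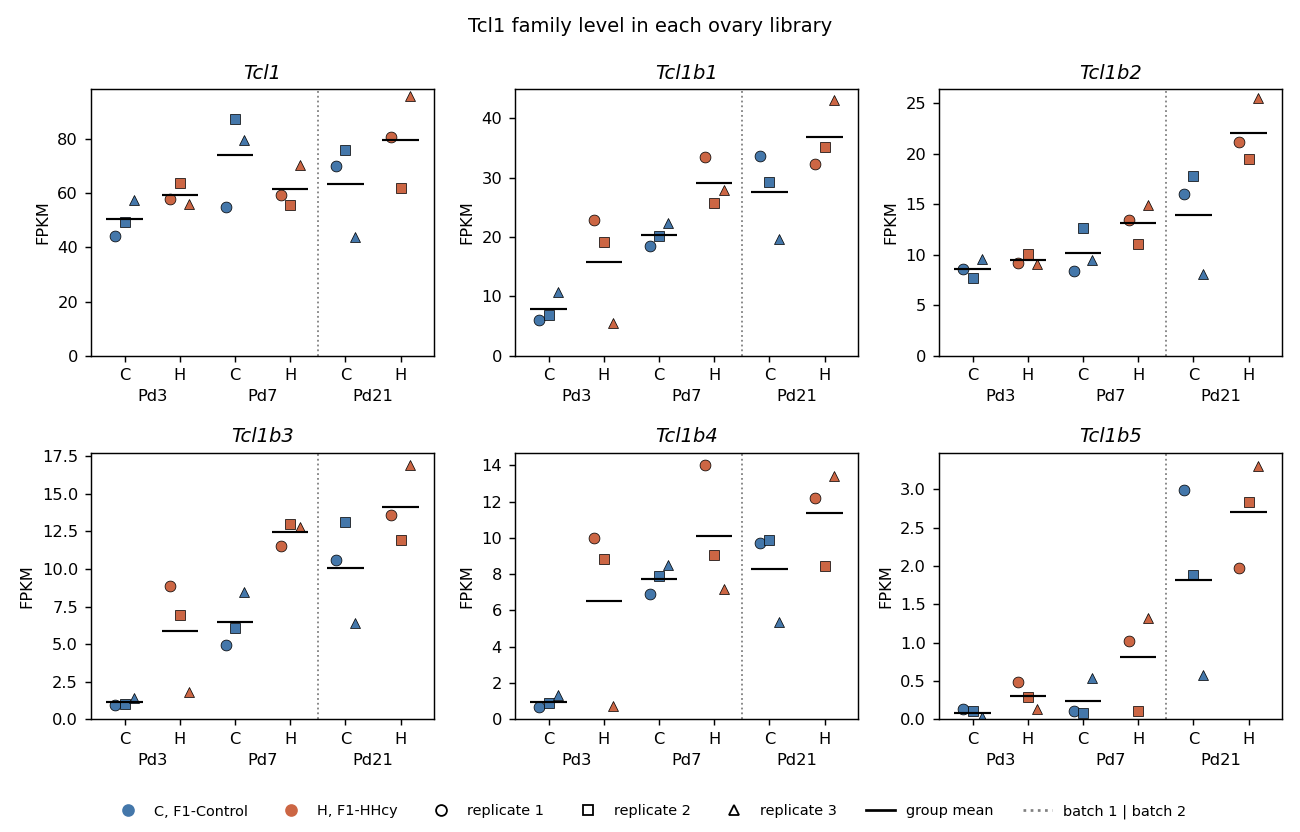
Each panel gives the FPKM of 1 member in the 18 libraries, with F1-Control (C) and F1-HHcy (H) side by side at each day, symbols for replicate numbers, bars for group means and a dotted line between the batches. Tcl1 stays between 43.9 and 95.8 FPKM, whereas Tcl1b1, Tcl1b3 and Tcl1b4 climb from Pd3 and the F1-HHcy Pd3 libraries split, with replicate 3 at 1.82 FPKM for Tcl1b3 against 8.84 and 6.92.

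The normal change between Pd3 and Pd7, which lie in the same batch, was described in F1-Control. Tcl1b1, Tcl1b3 and Tcl1b4 rose, which is 3 of the 5 members tested, where 6.03% of 13998 genes rose. Tcl1b4 reached 6.89, 7.89 and 8.5 FPKM at Pd7, above all of its Pd3 values, and rose by 2.16 on the log2 scale (SE 0.53, adjusted p = 0.0249), a ratio of group means of 7.91. Tcl1b3 reached 4.93, 6.07 and 8.46 FPKM and rose by 1.80 (SE 0.35, adjusted p = 0.0111, ratio of means 5.77). Tcl1b1 reached 18.5, 20.1 and 22.3 FPKM and rose by 1.29 (SE 0.37, adjusted p = 0.0413, ratio of means 2.57). None of these 3 genes had overlapping groups, as for higher values in 16.5% of all genes. Of the growing oocyte markers 12 of 16 rose over the same days, while 4 of 13 markers of germ cells and primordial oocytes fell. Granulosa markers rose in 5 of 10 cases (median 1.37) and 2 of 6 erythroid markers fell (median -1.84), and the part of these cells in the members' rise was not tested. In bulk ovary, fewer cells of a type and less RNA per cell cannot be told apart. Tcl1 itself, at 54.8, 87.5 and 79.8 FPKM, overlapped its Pd3 values (log2 difference 0.52, adjusted p = 0.059). Tcl1b2 differed by 0.21 (95% interval -0.13 to 0.54, adjusted p = 0.384), and Tcl1b5, at 3 to 21 fragments per library, was under the filter. With the replicate number as a block, Tcl1b1 no longer passed (adjusted p = 0.0634), while Tcl1b3 and Tcl1b4 did (0.0242 and 0.0342). Leaving out 1 library at a time kept all 3 directions, with 0 to 3 members called. No member passed without F1-Control Pd3 replicate 1 or without F1-Control Pd7 replicate 3.

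Whether the maternal diet moved the family was asked at each day. At Pd3 no member passed the adjusted threshold in limma, where 3.07% of 13277 genes did. By unadjusted p 2 of 5 members were under 0.05, as were 2974 of all 13277 genes. For the members, limma-voom on fragments gave 0 adjusted and 1 unadjusted. The 2 members in limma, Tcl1b3 and Tcl1b4, met a looser criterion, which 9.74% of genes met. It asks for an unadjusted p under 0.05 with a log2 difference of more than 0.58 either way. Tcl1b3 was at 8.84, 6.92 and 1.82 FPKM in F1-HHcy, each above the highest control of 1.41, with a log2 difference of 1.51 (SE 0.43, adjusted p = 0.10). A rise without overlap was seen in 11.8% of all genes tested. Tcl1b4 was at 10, 8.81 and 0.713 FPKM in F1-HHcy, with the last value inside the control range (log2 difference 1.54, SE 0.65, adjusted p = 0.218). It passed the filter through F1-HHcy replicates 1 and 2 and a single control library, so its entry into the test already depended on the diet difference. Tcl1b1 showed the same split, at 22.8, 19.2 and 5.57 FPKM, with replicate 3 below every control (log2 difference 0.76, adjusted p = 0.375).

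Tcl1 and Tcl1b2 lay close together in all 6 Pd3 libraries. Tcl1 was at 57.9, 63.8 and 56.0 FPKM in F1-HHcy (log2 difference 0.23, 95% interval -0.05 to 0.52, adjusted p = 0.306). Tcl1b2 was at 9.14, 10.1 and 9.13 FPKM (log2 difference 0.12, interval -0.16 to 0.40, adjusted p = 0.582). Tcl1b5 had 19, 11 and 5 fragments in F1-HHcy and was not tested. Without F1-HHcy Pd3 replicate 3, Tcl1b1, Tcl1b3 and Tcl1b4 passed, with log2 differences of 1.34, 2.06 and 2.41 and adjusted p of 0.00564, 0.000412 and 0.000278. Calls were common in that fit, in which 1219 of 13049 genes rose and 1605 fell. F1-HHcy Pd3 replicate 3 lay between the groups in growing oocyte markers, with 12 of 16 above all controls and 14 of 16 below both other F1-HHcy Pd3 libraries. Khdc3 was at 14.8 FPKM there, close to 16.1 and 15.9 in the other F1-HHcy libraries and above 5.67 to 8.18 in the controls. Bmp15 was at 3.7 FPKM against 34.0 and 20.1 in the others and 0.707 to 1.8 in the controls. Sycp3, a meiotic gene of the youngest oocytes, was at 178 FPKM there, against 32.5 and 84.4 in the other F1-HHcy libraries and 138 to 245 in the controls. At Pd3 all 16 growing oocyte markers had positive diet differences (median log2 difference 1.14, 5 rose), all 13 germ cell and primordial oocyte markers had negative ones (median -0.89, 0 fell by limma), and the median over all genes tested was -0.03. Of granulosa markers all 7 tested were positive (median 1.52, 3 rose), with sums over the list of 678, 414 and 250 FPKM in F1-HHcy against 151 to 170 FPKM in F1-Control. All 6 erythroid markers fell, with a sum of 3914 to 11210 FPKM in F1-Control and 780 to 1108 FPKM in F1-HHcy. The part of these cell types in the family's values was not tested.

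At Pd7, Tcl1b3 rose, which is 1 of the 5 members tested, where 5.88% of 13299 genes rose. It was at 11.5, 13.0 and 12.8 FPKM in F1-HHcy against 4.93, 6.07 and 8.46 in F1-Control, with no overlap, as for higher values in 19.5% of genes. The log2 difference was 0.87 (SE 0.18, 95% interval 0.46 to 1.28, adjusted p = 0.0172), a ratio of means of 1.92. The call was lost without F1-Control replicate 2 or without any of the F1-HHcy replicates, with adjusted p of 0.0565, 0.053, 0.0658 and 0.0613, while the difference stayed between 0.72 and 1.05. It was also lost with no filter on low values (0.0841) and with all 18 libraries in the model (0.0986). Tcl1b1 did not overlap either, at 33.5, 25.7 and 28.0 FPKM against 18.5, 20.1 and 22.3, and lay just past the threshold (log2 difference 0.49, SE 0.15, adjusted p = 0.0582).

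The other members overlapped between diets at Pd7. Tcl1b2 was at 13.4, 11.1 and 14.9 FPKM in F1-HHcy against 8.41, 12.7 and 9.49 (log2 difference 0.34, adjusted p = 0.218). Tcl1b4 was at 14, 9.08 and 7.17 FPKM against 6.89, 7.89 and 8.5 (log2 difference 0.30, adjusted p = 0.364). Tcl1 was the only member with a lower mean in F1-HHcy on any day, at 59.3, 55.5 and 70.3 FPKM against 54.8, 87.5 and 79.8 (log2 difference -0.24, 95% interval -0.67 to 0.19, adjusted p = 0.417). Tcl1b5 reached 1 FPKM in 2 of 6 libraries and was not tested. Growing oocyte markers were split on this day, with 7 of 16 positive and a median of -0.27. Among them Bmp15, a growth factor of growing oocytes, rose by 1.82 and the secreted oocyte protein gene Oosp1 by 0.90, whereas Zp2 of the zona pellucida (-1.17), Padi6 (-1.34) and Ooep (-0.90) of the oocyte's subcortical complex fell. Of 13 genes marking germ cells and primordial oocytes, 11 fell and 1 rose (median -1.16). All 6 theca and steroidogenic markers and 4 of 10 granulosa markers rose, and the 5 erythroid markers tested fell. The part of these cells in the value of Tcl1b3 was not tested.

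In F1-HHcy between Pd3 and Pd7, all 5 members tested had positive differences, and 0 passed in limma, where 4.44% of 13998 genes passed and 2.13% rose. Of them Tcl1b1 and Tcl1b3 met the looser criterion, as did 5.97% of genes with higher values at Pd7. By unadjusted p 3 members were under 0.05, as were 3512 of 13998 genes, and limma-voom gave 0 members adjusted and 3 unadjusted. The log2 differences were 1.16 for Tcl1b3 (adjusted p = 0.0753), 1.03 for Tcl1b1 (0.115), 0.91 for Tcl1b4 (0.309), 0.43 for Tcl1b2 (0.118) and 0.05 for Tcl1 (0.875). The Pd7 values of Tcl1b1, Tcl1b2 and Tcl1b3 lay above all of their Pd3 values, as for 14% of genes. The sizes depended on the library that stood apart. Without F1-HHcy Pd3 replicate 3 the differences were 0.61 for Tcl1b3, 0.45 for Tcl1b1 and 0.05 for Tcl1b4. Over the same days growing oocyte markers were split, with 8 of 16 positive, 1 that rose and a median of -0.07. Of theca and steroidogenic markers 5 of 6 rose (median 2.28), and 1 of 10 granulosa markers rose with all 10 positive. Of markers of germ cells and primordial oocytes 6 of 13 fell (median -1.02). The part of these cells in the members' values was not tested. Without F1-HHcy Pd3 replicate 1, Tcl1b1 (1.38, adjusted p = 0.0257) and Tcl1b3 (1.51, adjusted p = 0.0119) passed, where 777 of 13966 genes rose and 1210 fell.

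At Pd21 the diet difference was positive for all 6 members, and 0 passed in limma, where 2.23% of 13350 genes did and none of them rose. By unadjusted p 914 of 13350 genes were under 0.05. Among them was 1 member, as with limma-voom, which also gave 0 members adjusted. That member was Tcl1b2, at 21.2, 19.5 and 25.5 FPKM in F1-HHcy against 16.0, 17.8 and 8.1 in F1-Control, without overlap (log2 difference 0.68, SE 0.27, adjusted p = 0.583). It met the looser criterion, as did 0.0824% of genes with higher values in F1-HHcy. Without F1-Control Pd21 replicate 3 its difference was 0.36, which no longer met that criterion. A rise without overlap was seen in 1.92% of genes on this day. For the other members the log2 differences ran from 0.34 for Tcl1 to 0.49 for Tcl1b3, each with overlapping libraries. Tcl1 was at 80.7, 62.1 and 95.8 FPKM against 70.0, 76.1 and 43.9, and Tcl1b1 at 32.3, 35.1 and 43.0 against 33.6, 29.2 and 19.7. Tcl1b3 was at 13.6, 11.9 and 16.9 FPKM against 10.6, 13.1 and 6.44, and Tcl1b4 at 12.2, 8.46 and 13.4 against 9.69, 9.9 and 5.34. Tcl1b5 rested on 24 to 139 fragments per library here, at 1.98, 2.83 and 3.31 FPKM against 2.99, 1.88 and 0.577. F1-Control Pd21 replicate 3 was the lowest of the 6 libraries for every member. Its summed multiciliated and oviduct epithelium markers were at 488 FPKM, against 435 and 97.4 in the other controls and 6.08 to 11.4 in F1-HHcy. Of those 8 markers 7 fell, and their part in the members' values was not tested. With 1 library left out at a time, no member was called and all 6 differences stayed positive, but they shrank. Their smallest values were 0.10 for Tcl1, 0.11 for Tcl1b5, 0.17 for Tcl1b4, 0.22 for Tcl1b1 and 0.23 for Tcl1b3.

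The diet effect was then compared between days in the model itself. Between Pd3 and Pd7, 0 of 5 members passed in limma, where 0.514% of 13998 genes did, and 0 were under an unadjusted p of 0.05 in limma or limma-voom. The largest difference of effects was that of Tcl1b4 (-1.24, 95% interval -2.87 to 0.38, adjusted p = 0.411). Without F1-HHcy Pd3 replicate 3, Tcl1b3 (-1.19, adjusted p = 0.0293) and Tcl1b4 (-2.11, adjusted p = 0.00427) passed, their diet effect being smaller at Pd7. In that fit 447 of 13914 genes passed. Between Pd7 and Pd21, 0 of 6 members passed, where 3.89% of 14607 genes did, and 0 were under an unadjusted p of 0.05. Tcl1 came nearest (0.58, 95% interval -0.05 to 1.21, adjusted p = 0.297).

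**Figure D3:**
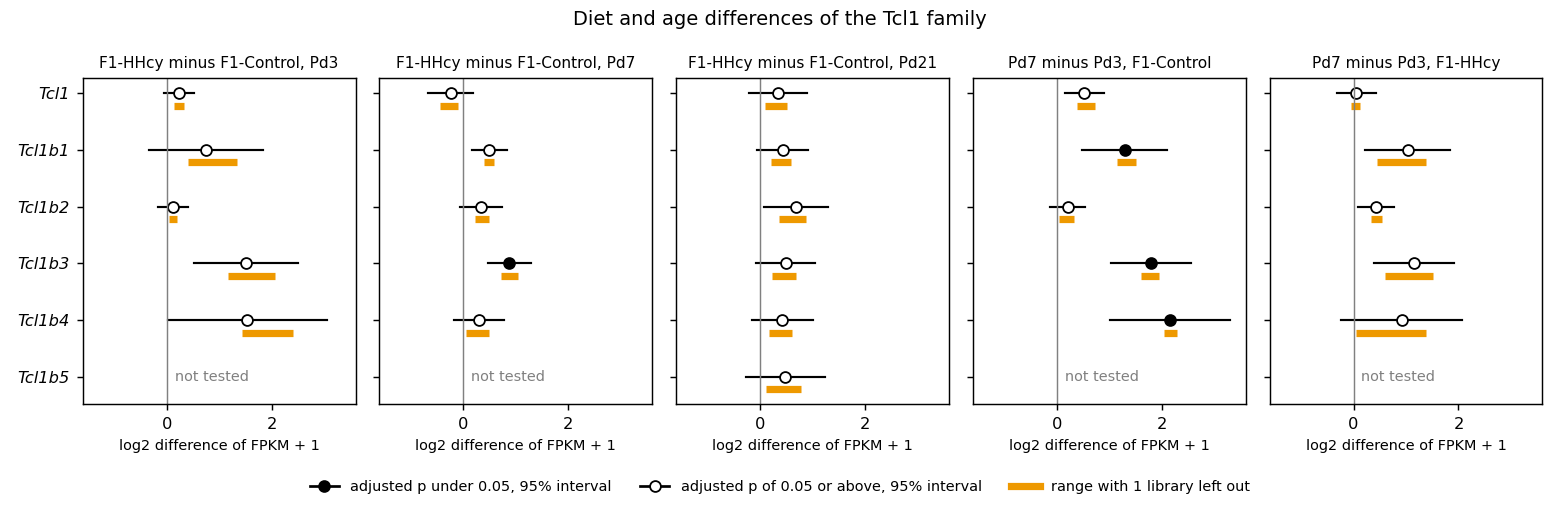
Points give the log2 difference of FPKM + 1 for each member in 5 comparisons, filled where the adjusted p is under 0.05, with 95% intervals as black lines and the range over fits with 1 library left out as orange bars. Filled points are Tcl1b3 at Pd7 (0.87) and Tcl1b1, Tcl1b3 and Tcl1b4 from Pd3 to Pd7 in F1-Control (1.29, 1.80 and 2.16).

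Because the members moved unequally, the make-up of the family differed between libraries. Tcl1 supplied 71.3% to 74.8% of the summed family FPKM in F1-Control at Pd3, 58.5% to 65.1% at Pd7 and 49.0% to 52.2% at Pd21. In F1-HHcy the share of Tcl1 was 53.0%, 58.5% and 76.3% at Pd3, 44.7% to 52.3% at Pd7 and 44.4% to 49.8% at Pd21. At Pd7 every F1-HHcy library thus lay below every control, and at Pd21 the ranges overlapped. Tcl1b1, Tcl1b3 and Tcl1b4 together made up 12.5% to 16.7% in F1-Control at Pd3, against 38.1%, 32.0% and 11% in F1-HHcy. They made up 25.4% to 32.4% in F1-Control and 35.7% to 44.4% in F1-HHcy at Pd7. The family sum was 60.7 to 80.9 FPKM in F1-Control and 73.3 to 109 FPKM in F1-HHcy at Pd3, and 93.6 to 134 against 114 to 135 FPKM at Pd7. Shares and sums were not tested.

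**Figure D4:**
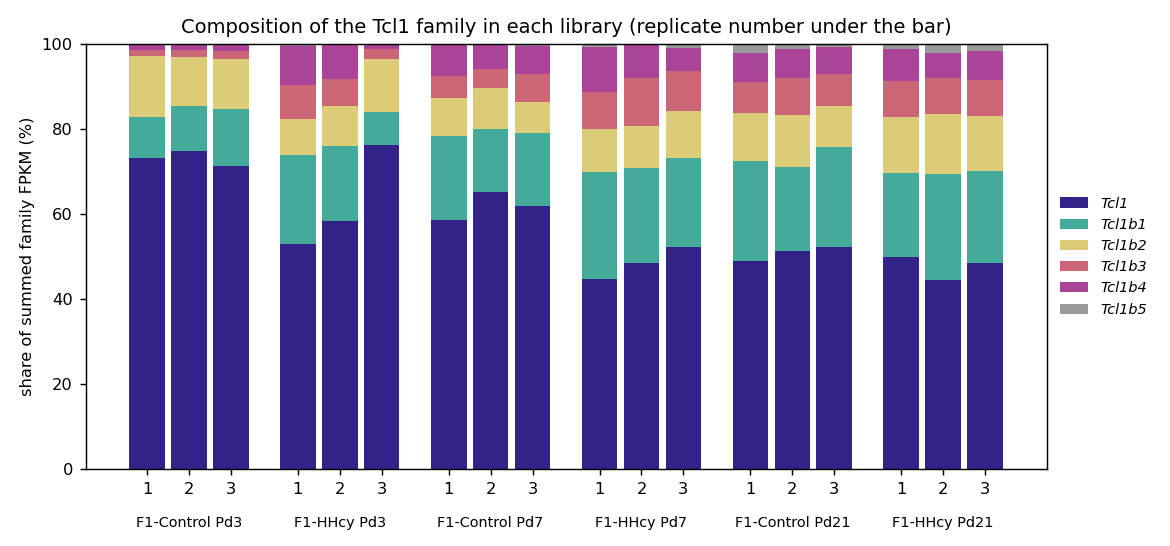
Bars give the share of each member in the summed FPKM of the family for the 18 libraries, by group and replicate number. Tcl1 takes up 71.3% to 74.8% of the bar in F1-Control Pd3 and in F1-HHcy Pd3 replicate 3 (76.3%), and 44.4% to 52.3% in every F1-HHcy Pd7 library and every Pd21 library.

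The members were set beside oocyte genes as a description over 18 libraries that share groups and batches. Tcl1b3 followed Bmp15 (r = 0.978 on log2(FPKM + 1), and 0.993 over the 12 libraries of batch 1), as it followed Oosp1 (0.975), but not Zp2 (0.16, and 0.344 in batch 1), which is also a growing oocyte marker. Tcl1 correlated with Zp2 at 0.743 in batch 1 and 0.356 over all libraries. Tcl1b1 and Tcl1b4 had correlations of 0.951 and 0.903 with Bmp15, Tcl1b2 of 0.759 and Tcl1 of 0.56. Against Sycp3 the correlation was -0.877 for Tcl1b3, -0.873 for Tcl1b1 and -0.362 for Tcl1. Within the family, Tcl1b1, Tcl1b3 and Tcl1b4 correlated with each other at 0.948 to 0.961, while Tcl1 correlated with them at 0.61 to 0.618 and with Tcl1b2 at 0.742. Tcl1b2 and Tcl1b5 correlated at 0.879. Of neighbouring genes, Tcl1b3 and Tcl1b4 correlated at 0.948, Tcl1b1 and Tcl1b5 at 0.743 and Tcl1b2 and Tcl1b1 at 0.742. Tcl1b5 and Tcl1b3 correlated at 0.706 and Tcl1b4 and Tcl1 at 0.61. Tcl1b1 and Tcl1b3, which are not neighbours, correlated at 0.961. Per 1000 FPKM of summed growing oocyte markers, the family stood at 41.7 to 46.5 FPKM in F1-Control and 30.4 to 37.1 in F1-HHcy at Pd3. At Pd7 the order was the opposite, with 28.7 to 36.1 in F1-Control and 44.8 to 57.3 in F1-HHcy, and at Pd21 the ranges overlapped (26.7 to 51.1 and 37.9 to 50.3). The ratio also moved with the marker sum itself. That sum was 1305 to 1939 FPKM in F1-Control and 2346 to 3585 in F1-HHcy at Pd3. At Pd7 it was 2866 to 4687 and 1997 to 3002 FPKM, while the family sum overlapped between diets on both days. Per 1000 FPKM of markers of germ cells and primordial oocytes, the family stood higher in F1-HHcy at Pd7 (345 to 385 against 98.8 to 223) and overlapped at Pd3 (59.2 to 217 against 44.8 to 70.1).

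**Figure D5:**
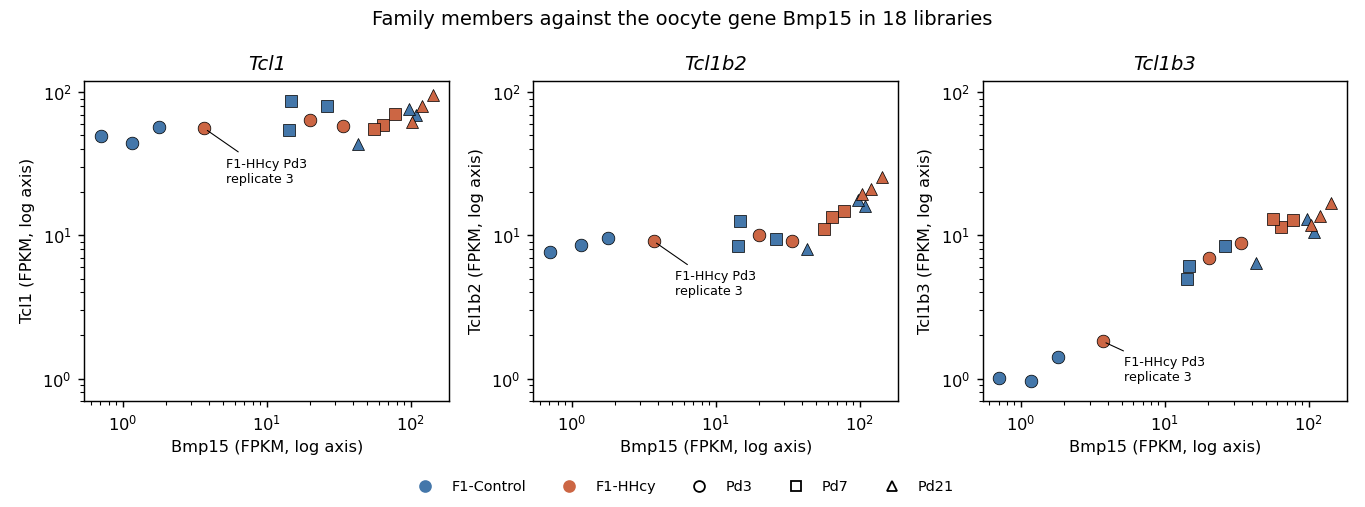
Each panel plots the FPKM of Tcl1, Tcl1b2 or Tcl1b3 against the FPKM of Bmp15, both on log axes, for the 18 libraries, with colour for diet and shape for day. Tcl1b3 rises with Bmp15 from 0.958 to 16.9 FPKM and Tcl1 stays within 43.9 to 95.8 FPKM, and F1-HHcy Pd3 replicate 3 lies next to the control Pd3 libraries.

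The 10 genes whose log2(FPKM + 1) correlated best with Tcl1 over the 18 libraries, among 13429 genes with a mean of at least 1 FPKM, were 2700062C07Rik and Oas1h (0.869 each), Pstpip1 (0.868), Eif2b1 (0.843), Oas1c (0.826), Eef1d (0.82), G6pdx (0.814), Pecr (0.812), Nfyc (0.811) and Nhej1 (0.803). Oas1c and Oas1h belong to the 2′-5′ oligoadenylate synthetase family, Eif2b1 and Eef1d act in translation, and G6pdx makes NADPH in the pentose phosphate pathway. For Tcl1b3, named here after its values were seen, likeness was closer, with Accsl (0.993), Omt2a (0.987), Aurkc (0.987), Trim61 (0.986) and Omt2b (0.986) at the top. Aurkc is a meiotic kinase, and Omt2a and Omt2b are oocyte maturation genes. None of the 10 genes nearest to Tcl1 was among the 10 nearest to Tcl1b3.

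The rest of the AKT pathway was taken from 44 genes in 4 lists. Akt1 was at 60.2 and 63.3 FPKM and Akt2 at 26.4 and 22.9 (Pd3 means, controls first), and none of the 12 kinase genes rose or fell with diet on any day. At Pd3, 0 of 43 tested genes passed in limma (11 by unadjusted p, and 0 adjusted and 13 unadjusted by limma-voom), with a median of -0.08 against -0.03 for all genes. The 4 with the smallest p were Pik3cd, a catalytic PI3K subunit (0.77), Kitl, the ligand of the KIT receptor (-0.55), Cdkn1b, the cell cycle inhibitor p27 (-0.98), and Pik3r3, a regulatory PI3K subunit (-0.78), with adjusted p of 0.0638, 0.0642, 0.0818 and 0.104. Without F1-HHcy Pd3 replicate 3 all 4 passed (0.0278, 0.0315, 0.0105 and 0.0271), in a fit where 1219 of 13049 genes rose and 1605 fell.

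At Pd7, the day on which Tcl1b3 rose, 7 of 42 pathway genes passed, 4 up and 3 down, where 11.9% of all genes did. Among receptors and PI3K subunits, Irs1, the adaptor of the insulin and IGF1 receptors (1.03, adjusted p = 0.00582), Pik3cd (0.94, 0.0201) and the receptor gene Igf1r (0.95, 0.0398) rose, and Pik3r3 (-0.87, 0.012) and the receptor gene Kit (-0.78, 0.0477) fell. Among substrates and readouts, Foxo1, a transcription factor that AKT keeps out of the nucleus (1.5, 0.0219), rose and Ccnd2, a D-type cyclin (-0.71, 0.0186), fell. No brake of the pathway passed on that day, 0 of 8 tested. The median over the 42 genes was 0.14 against 0.00 for all genes to 2 decimals. Only Irs1 kept its call with each library left out, and none of the 7 passed without the filter on low values. Kit is also in the list of germ cell and primordial oocyte markers. At Pd21, 0 of 43 passed in limma, and 0 were under an unadjusted p of 0.05 in limma or limma-voom, with Trib3, an AKT-binding pseudokinase (-0.31), Kitl (0.36), Pik3r2 (-0.22) and Bad (-0.20) having the smallest p.

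Between Pd3 and Pd7 in F1-Control, when 3 Tcl1b genes rose, 5 of 43 pathway genes passed, where 12.6% of all genes did, and all 5 fell. They were Kit (-1.13), Cdkn1b (-1.03), the dormancy factor gene Foxo3 (-0.87), Kitl (-0.66) and Pik3r2 (-0.55), with adjusted p of 0.0111 to 0.041. In F1-HHcy only Ccnd2 passed (-0.73, adjusted p = 0.0259). Mtcp1, the family's X-linked relative, was at 8.48, 7.73 and 5.51 FPKM in F1-HHcy at Pd7 against 4.46, 2.04 and 4.8, without overlap (log2 difference 0.83, SE 0.26, adjusted p = 0.0625), and differed by 0.03 at Pd3 and 0.18 at Pd21. Of the genes beside the cluster, Syne3 had its lowest mean in F1-Control at Pd3 (0.583 FPKM) and its highest in F1-HHcy at Pd21 (1.77 FPKM), the same groups as the members. It was higher in F1-HHcy without overlap at Pd3 (0.988 to 1.14 against 0.567 to 0.60 FPKM, under the filter) and at Pd7 (1.36 to 1.77 against 0.632 to 0.991 FPKM, log2 difference 0.50, adjusted p = 0.0645). Glrx5, the nearest gene before it, differed by -0.46 at Pd3 (adjusted p = 0.182) and -0.54 at Pd7 (0.0916), and D430019H16Rik, the nearest after it, by 0.40 (0.162) and -0.01 (0.972). Of the other neighbours, Bdkrb2 was under the filter on every day, and Clmn and Bdkrb1 did not pass in any diet comparison in which they were tested. Clmn was lower in F1-HHcy at Pd21, opposite to the members, with means of 0.522 and 2.08 FPKM and no overlap. Its log2 difference was -0.98 (limma, adjusted p = 0.159). It met the looser criterion, as did 675 of 13350 genes with lower values in F1-HHcy.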

How the data were processed

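Ovarian poly-A RNA was sequenced from 18 libraries. Per the submitters' processing notes, FastQC 0.11.9, Trimmomatic 0.39, STAR 2.7.9a, featureCounts 2.0.1 and DESeq2 1.36.0 were used with GRCm38/mm10. The deposited values, made by the authors, carry no named unit and were read as FPKM: 99.989% of 27294 genes gave whole fragments in all libraries (tolerance 0.02 fragments). Gene lengths were themselves fitted to give whole fragments, a weak check for genes detected in few libraries. Only 4.5% of the genes had the GENCODE M21 exon length. Read length, annotation release and counting of shared reads are not given in the sources used here.

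Groups followed the labels. A gene that reached 1 FPKM in 3 or more libraries of a fit was tested on log2(FPKM + 1) with limma 3.58.1 (R 4.3.3, trend) and Benjamini-Hochberg adjustment over all genes. The diet was tested within each day (6 libraries), age and its interaction with diet over the 12 libraries of batch 1, and the difference of the diet effect between Pd7 and Pd21 over all 18. Alternatives were a pseudocount of 0.1, no filter, median-ratio scaling, limma-voom on the recovered fragments, a replicate block, 18 libraries in the model, a looser criterion (unadjusted p under 0.05, log2 difference over 0.58) and each library left out. For the difference between Pd7 and Pd21, a fit without Pd3 libraries and the looser criterion were added after seeing the data. Fits were tested on simulated data. Replicate numbers were checked for pairing by the correlation of deviations from group means. Same-numbered F1-Control Pd3 and Pd7 libraries correlated at 0.124 to 0.267, all 3 above 0.1, while same-numbered libraries of the other comparisons reached -0.338 to 0.120. Differently numbered libraries reached at most 0.061 in the F1-Control comparison but 0.309 in the diet comparison at Pd21. Pairing in F1-Control was thus taken from the data alone and is uncertain. Main fits were unpaired, with the replicate block as an alternative. Named pathway genes were those with an adjusted p under 0.05 or, in default, the 4 smallest p-values. Sequences were handled with Python 3.11.15 and Biopython 1.88, from RefSeq and GENCODE M21 tables. The members, lists and tests were chosen with earlier results of these data known.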

Additional observations from a re-analysis of the deposited data

Results flagged for a closer look

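Within the AKT pathway lists, the diet effect on Irs1, the adaptor of the insulin and IGF1 receptors, differed between Pd7 and Pd21 in the test of that difference itself (limma, 18 libraries). The difference, Pd21 minus Pd7, was -1.10 on the log2 scale (SE 0.29, 95% interval -1.71 to -0.49, adjusted p = 0.0423), where 3.89% of 14607 genes passed. It was the 1 pathway gene of 43 tested to pass, a share no higher than that over all genes. Irs1 was at 15.6 ± 0.889 FPKM in F1-HHcy and 7.22 ± 1.32 FPKM in F1-Control at Pd7, and at 13.3 ± 2.79 and 13.9 ± 1.40 FPKM at Pd21 (SD, n = 3 each). Day and batch cannot be told apart in this difference.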

How the results depend on the processing

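Counts of members called depended on the settings. With the looser criterion 2 members were called at Pd3, 1 at Pd21 and 2 from Pd3 to Pd7 in F1-HHcy, where the adjusted p called 0 in each. With all 18 libraries in the model 1 was called at Pd3 (Tcl1b3, adjusted p = 0.0147) and 0 at Pd7. With no filter on low values 0 were called at Pd7, over 27626 genes tested, and 1 from Pd3 to Pd7 in F1-Control, over 29260 genes tested. With 1 library left out at a time, members called ranged from 0 to 3 at Pd3, 0 to 1 at Pd7, 0 to 3 from Pd3 to Pd7 in F1-Control, 0 to 2 in F1-HHcy and 0 to 2 for the difference between Pd3 and Pd7. With the replicate block, members called went from 3 to 2 in F1-Control, and Mtcp1 at Pd7, where numbers did not pair the libraries, went under the threshold (adjusted p = 0.0438). The block changed no other call among the members, Mtcp1 and the pathway genes named.

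Of 474 repeats of a member's difference, 427 kept direction and side of the threshold, 23 lost the call, 10 gained it and 14 turned direction. All 14, and 3 of Mtcp1, came from leaving out 1 library: Mtcp1 at Pd3 (-0.0216 to 0.113), at Pd21 (-0.0388 to 0.439) and from Pd3 to Pd7 in F1-Control (-0.358 to 0.108), Tcl1 from Pd3 to Pd7 in F1-HHcy (-0.0422 to 0.125), Tcl1b1 in the differences between Pd3 and Pd7 (-0.844 to 0.0839) and between Pd7 and Pd21 (-0.278 to 0.0908), and Tcl1b4 (-0.129 to 0.369) and Tcl1b5 (-0.389 to 0.281) in the latter. Relative to growing oocyte markers the family's log2 ratio of F1-HHcy to F1-Control was -0.45 at Pd3 and 0.71 at Pd7. Relative to germ cell and primordial oocyte markers it was 1.15 and 1.44. The mean growing oocyte marker sum was 1556 FPKM in F1-Control and 2958 FPKM in F1-HHcy at Pd3, and 3708 and 2443 FPKM at Pd7. The cause was not tested.

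Over all genes, calls at Pd3 numbered 408, with 0 to 881 under other settings and 0 to 2824 with 1 library left out. At Pd7 they numbered 1577 (91 to 1874, and 493 to 1845), at Pd21 298 (37 to 498, and 1 to 185), and from Pd3 to Pd7 1765 in F1-Control (691 to 1722, and 249 to 2224) and 621 in F1-HHcy (241 to 662, and 0 to 1987). Differences of the diet effect numbered 72 between Pd3 and Pd7 (32 to 104, and 0 to 447) and 568 between Pd7 and Pd21 (509 to 556, and 187 to 1170). Counting error was largest for Tcl1b5, which had 1 to 52 fragments per library at Pd3 and Pd7.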
